A study of Homo sapiens with 12 samples.

Results

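The heat shock chaperones are the proteins that keep other proteins folded, and 10 of their genes were followed through mRNA sequencing of leukaemia cells incubated with OGP46. The genes were chosen by symbol: HSPA8, HSPA1A, HSPA1B, HSPH1, DNAJB1, DNAJB4, BAG3, HSP90AA1, HSPB1 and HSPD1. All 10 were found among the 20003 gene symbols used, and all 10 passed the filter on low values in every comparison. OGP46 is a kaurene diterpenoid derivative made from oridonin. NB4 is an established cell line of acute promyelocytic leukaemia that carries the PML-RARα fusion, and Kasumi-1 is an established acute myeloid leukaemia line that carries the AML1-ETO fusion. For each line there were 3 control samples, which received DMSO, and 3 samples incubated with 1 μM OGP46, giving 12 samples in 4 groups. The labels and methods give 48 h for all of them, and a legend of the study gives a longer time. The same legend calls its figures representative of 3 independent experiments. The samples carry the numbers 1 to 3 in each group, which the legend does not tie to those experiments. A single line stands for each disease, and the labels do not say whether the samples of a group were separate cultures. The p-values therefore rest only on spread between samples, which may be technical. For each gene limma draws this spread partly from the other genes.

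In a resting cell, heat shock factor 1 (HSF1) is held inactive by chaperones. When unfolded proteins draw the chaperones away, HSF1 forms trimers, binds heat shock elements in promoters and raises the inducible chaperones. HSPA8 is the constitutive cytosolic HSP70, HSPA1A and HSPA1B encode the inducible HSP70, and HSPH1 is an HSP110 that exchanges the nucleotide of HSP70. DNAJB1 and DNAJB4 are J-domain proteins that bring substrates to HSP70, and BAG3 is a co-chaperone that links HSP70 to selective autophagy. HSP90AA1 is the inducible cytosolic HSP90, HSPB1 is a small heat shock protein, and HSPD1 is the mitochondrial chaperonin. HSP70 and HSP90 proteins are known to be abundant in many leukaemias.

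The promoter sequences of the 10 genes were read first, because the heat shock element is the feature that connects most of them to HSF1. A heat shock element is a run of GAA units in alternating orientation with 2 bases between the units. It was searched as a pair of units (GAANNTTC or TTCNNGAA) and as 3 units in a row (GAANNTTCNNGAA or TTCNNGAANNTTC) on both strands, and each run of 3 units therefore also contains overlapping matches of the pair. In the RefSeq promoter windows of GRCh38.p14, from 250 bases before to 50 bases after each start, the pair was found for 8 of the 10 members and for 16.2% of all 27305 genes. The run of 3 units was found for 3 members, HSPA8, HSP90AA1 and HSPD1, and for 0.608% of all genes. The windows of HSPH1 and BAG3 held no match, which says only that these letters are not in those windows. The stretches below are shown 5′ to 3′ on the strand of the gene, with the units of the element and the bases between them in capitals. HSPA1A and HSPA1B are set side by side because they are nearly the same sequence, DNAJB4 because it had the largest log2 fold change with OGP46, and HSPA8 and HSP90AA1 because they hold 3 units in a row. They lie at chr6:31815392-31815489 (plus strand), chr6:31827588-31827685 (plus), chr1:78004796-78004893 (plus), chr11:123062137-123062236 (minus) and chr14:102087060-102087177 (minus), in that order.
HSPA1A: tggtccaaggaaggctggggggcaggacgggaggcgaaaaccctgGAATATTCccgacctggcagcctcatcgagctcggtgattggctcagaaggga
HSPA1B: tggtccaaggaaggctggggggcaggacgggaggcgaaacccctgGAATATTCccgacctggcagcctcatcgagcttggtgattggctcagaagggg
DNAJB4: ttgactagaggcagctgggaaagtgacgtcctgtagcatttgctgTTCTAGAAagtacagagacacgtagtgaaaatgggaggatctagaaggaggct
HSPA8: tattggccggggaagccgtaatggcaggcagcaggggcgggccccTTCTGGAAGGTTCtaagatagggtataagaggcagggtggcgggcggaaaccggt
HSP90AA1: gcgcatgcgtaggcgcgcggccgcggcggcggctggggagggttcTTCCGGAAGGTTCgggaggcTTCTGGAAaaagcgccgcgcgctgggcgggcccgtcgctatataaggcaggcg
The element begins 106 bases before the RefSeq start in HSPA1A, 105 in HSPA1B and 98 in DNAJB4. Such distances depend on the annotation. GENCODE release 29 begins HSPA1A at chr6:31815464, inside the stretch shown. In HSPA8 the window holds 2 runs of 3 units, of which the one shown begins 55 bases before the start and the other 230 bases before it, and in HSP90AA1 the run begins 88 bases before the start. The DNAJB4 element lies before the downstream of 2 starts that RefSeq gives, and the window of the upstream start held none. Over the whole window 277 of the 300 bases of HSPA1A and HSPA1B were identical (92.3%).

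The 10 members covered a wide range of levels on the FPKM scale, which is per length of the gene and so allows genes to be compared. The most abundant member in every group was HSPA8, at 853 ± 99.99 FPKM in NB4 controls and 695 ± 121 in Kasumi-1 controls (mean ± SD, n = 3). HSP90AA1 and HSPD1 came next, and in NB4 controls their values overlapped, at 498 ± 46.2 and 499 ± 26.5 FPKM. HSPB1 followed with 139 ± 16.1 FPKM in NB4 and 168 ± 20.5 in Kasumi-1 controls, separated from its neighbours in both lines. The other members lay much lower. In NB4 controls, HSPH1 stood at 59.2 ± 6.86 FPKM and apart from the members below it, whereas DNAJB1 (22.4 ± 5.14), HSPA1B (16.1 ± 7.77), HSPA1A (11.3 ± 4.20) and BAG3 (10.3 ± 1.77) each overlapped the next in order. In Kasumi-1 controls HSPH1 (24.7 ± 4.53) overlapped DNAJB1 (22.2 ± 5.69), and HSPA1A (7.67 ± 2.77), HSPA1B (5.48 ± 2.22), BAG3 (4.64 ± 1.53) and DNAJB4 (3.22 ± 0.434) each overlapped the next. DNAJB4 was the lowest in both controls, at 2.67 ± 0.440 FPKM in NB4. Summed over the 10 genes, the members made up 0.725% to 0.901% of all FPKM in the NB4 samples and 0.497% to 0.584% in the Kasumi-1 samples.

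**Figure D1:**
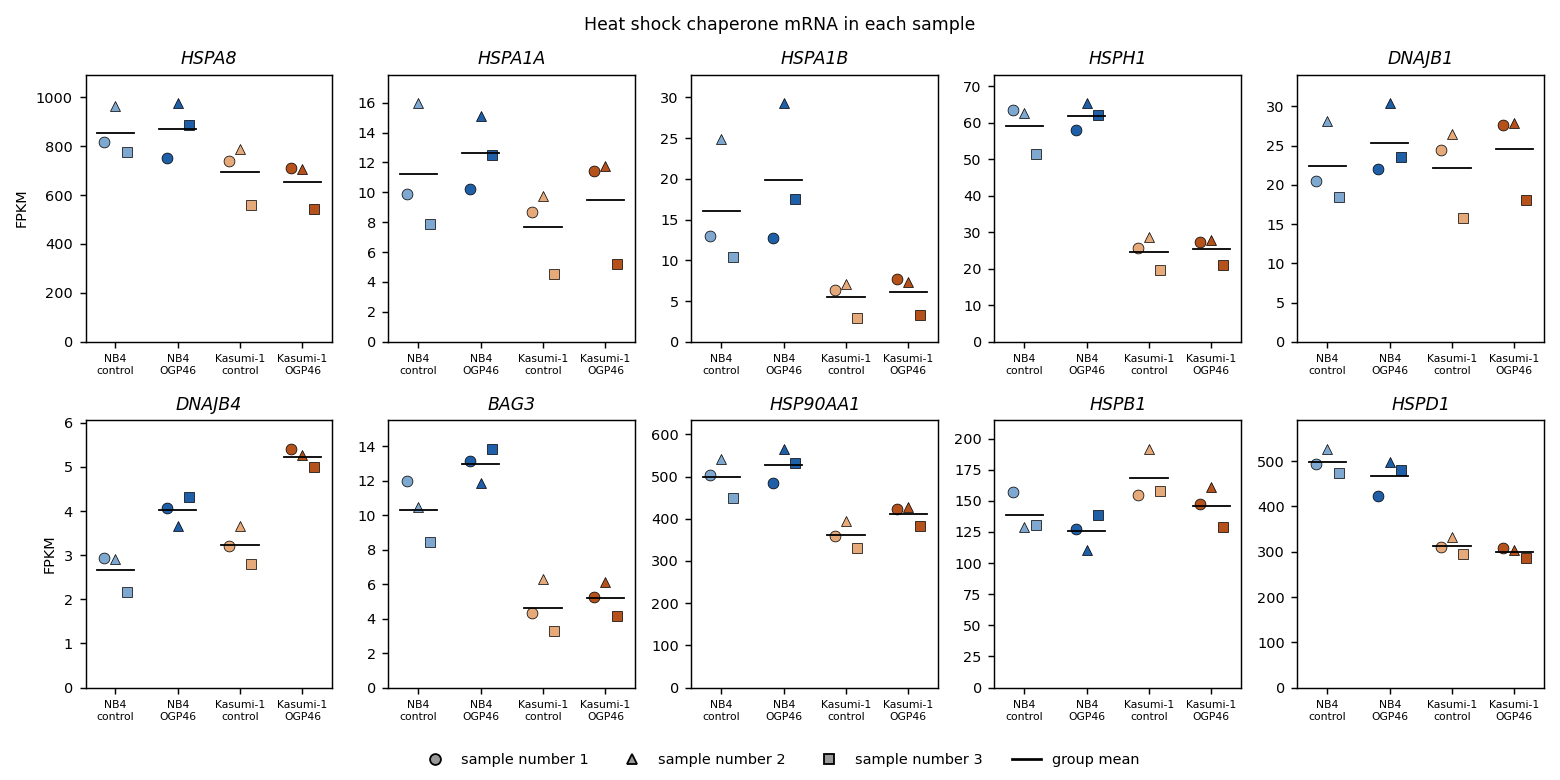
Each panel plots the FPKM of 1 gene (vertical axis, from 0) in the 12 samples, by group along the horizontal axis. The symbols give the number that the sample carries and the line gives the group mean. DNAJB4 is the gene whose OGP46 samples all lie above the controls in both lines, from 3.66 to 4.33 against 2.16 to 2.93 FPKM in NB4, and the Kasumi-1 samples with the number 3 (squares) lie lowest in both arms for 9 of the 10 genes.

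The first comparison asked whether OGP46 raised the heat shock chaperones in either line. DNAJB4 had the largest log2 fold change in both: its mean was about 1.5 times higher with OGP46 in NB4 and about 1.61 times higher in Kasumi-1. The inducible HSP70 genes, HSPH1 and DNAJB1 differed by less than their spread between samples, HSP90AA1 was slightly higher in mean in Kasumi-1, and HSPB1 and HSPD1 were slightly lower in both lines. None of the 10 members passed an adjusted p of 0.05 with a log2 fold change of 0.58 in size (1.49-fold) in limma without a block, in either line. At an unadjusted p of 0.05, 2 members passed in NB4 (DNAJB4 and BAG3) and 2 in Kasumi-1 (DNAJB4 and HSP90AA1), where 29.1% and 15.6% of all genes passed it in either direction. With the adjusted p and the fold minimum, 1.45% of all genes were called higher and 0.111% lower in NB4, and 0.0169% higher and 0.0169% lower in Kasumi-1. The samples of a line that share a number deviated together over all genes, so the number was also fitted as a block. In NB4, however, not every sample was most like its own number over all genes tested. In the fit with the block 1 member, DNAJB4, was called higher in each line and none was called lower. The background of the blocked fit was 5.06% higher and 1.15% lower in NB4 and 0.27% higher and 0.346% lower in Kasumi-1.

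DNAJB4, the J-domain protein with the low level, had 2.93, 2.92 and 2.16 FPKM in NB4 control samples 1 to 3, and 4.06, 3.66 and 4.33 FPKM in the OGP46 samples. Every OGP46 sample lay above every control. In Kasumi-1 the controls had 3.21, 3.66 and 2.79 FPKM and the OGP46 samples 5.41, 5.27 and 5.0003, again without overlap and with a wider gap. On the log2(FPKM + 0.1) scale DNAJB4 was higher by 0.58 ± 0.14 (SE) in NB4 (limma adjusted p = 0.0685; with the block, 0.0105) and by 0.69 ± 0.10 in Kasumi-1 (limma adjusted p = 0.0515; with the block, 0.00612). It was higher in 3 of 3 pairs of equal number in each line, by 0.46, 0.32 and 0.97 in NB4 and by 0.73, 0.51 and 0.82 in Kasumi-1. Within a line the blocked fit leaves 2 residual degrees of freedom, against 4 without the block, so its SE and p lean more on other genes. The NB4 pair with the number 3 held the largest difference. Without those samples the blocked value was 0.39 (limma adjusted p = 0.0353), under the fold minimum. DNAJB4 was the only member whose groups did not overlap, in NB4 and in Kasumi-1 alike. Among all genes the OGP46 samples lay above the controls without overlap for 32.7% in NB4 and 17.4% in Kasumi-1, and below them for 1.91% and 5.23%.

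The large share in NB4 goes with a shift of the whole table. The median log2 fold change over all genes tested was 0.18 in NB4 and 0.046 in Kasumi-1, and the sum of FPKM was 248207 to 256268 in the NB4 controls and 263341 to 291523 in the NB4 OGP46 samples. The median over the 10 members was 0.13 in NB4, below that of all genes, and 0.15 in Kasumi-1, above it. Relative to the median of all genes, the log2 fold change of DNAJB4 was 0.40 higher in NB4 and 0.64 higher in Kasumi-1. When each sample was scaled to the same sum of FPKM together with the block, DNAJB4 in NB4 came under the fold minimum (0.46, limma adjusted p = 0.0329), and with median centring and the block it no longer passed either threshold (0.39, limma adjusted p = 0.066). In Kasumi-1 it was called under both (0.71 and 0.62, limma adjusted p = 0.00352 and 0.00295).

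The inducible HSP70 pair gave no call. HSPA1A had 9.90, 16.0 and 7.90 FPKM in NB4 controls and 10.2, 15.1 and 12.5 with OGP46, a log2 difference of 0.21 ± 0.25 (95% interval −0.36 to 0.77, limma adjusted p = 0.583). HSPA1B had 12.9, 24.9 and 10.3 FPKM in the controls and 12.7, 29.3 and 17.6 with OGP46 (0.32 ± 0.36, −0.51 to 1.16, limma adjusted p = 0.565). In both genes the samples with the number 2 were highest in each arm, and the spread between numbers was larger than the difference between arms. In Kasumi-1, HSPA1A had 8.70, 9.78 and 4.53 FPKM in controls and 11.4, 11.8 and 5.18 with OGP46 (0.28 ± 0.33, −0.47 to 1.03, limma adjusted p = 0.715). HSPA1B had 6.35, 7.15 and 2.96 FPKM and then 7.75, 7.29 and 3.29 (0.15 ± 0.36, −0.65 to 0.96, limma adjusted p = 0.869). Here the samples with the number 3 were the low ones. Within the pairs of equal number the Kasumi-1 values of HSPA1A were higher with OGP46 in 3 of 3 pairs, by 0.39, 0.27 and 0.19, and with the block the interval was 0.13 to 0.43 (limma adjusted p = 0.0554). With the block and scaling to the same sum of FPKM it was at 0.30 (limma adjusted p = 0.0205). With the block and median centring it was at 0.22 (0.0613), and both values were under the fold minimum.

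HSPH1 and the constitutive HSPA8 differed between the arms by less than their spread. HSPH1 had 63.6, 62.7 and 51.3 FPKM in NB4 controls and 58.0, 65.3 and 62.1 with OGP46, and 25.6, 28.6 and 19.7 against 27.2, 27.9 and 20.99 FPKM in Kasumi-1. The log2 differences were 0.067 ± 0.10 in NB4 (−0.16 to 0.30) and 0.046 ± 0.14 in Kasumi-1 (−0.27 to 0.36). HSPA8 had 818, 966 and 776 FPKM in NB4 controls and 754, 976 and 887 with OGP46. In Kasumi-1 it had 739, 788 and 559 FPKM and then 710, 706 and 545, lower with OGP46 in each pair but by less than the spread (−0.083 ± 0.14). The groups of both genes overlapped in both lines.

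DNAJB1, the main J-domain partner of inducible HSP70, varied more with the number of the sample than with OGP46. Its values in NB4 were 20.4, 28.2 and 18.5 FPKM in controls and 22.0, 30.4 and 23.6 with OGP46, and in Kasumi-1 24.5, 26.4 and 15.7 against 27.7, 27.9 and 18.0. Each pair was higher with OGP46 in both lines, but the differences were small, 0.19 ± 0.17 in NB4 (limma adjusted p = 0.484; with the block, 0.134) and 0.15 ± 0.21 in Kasumi-1 (0.757; with the block, 0.154). With the block and scaling to the same sum of FPKM, DNAJB1 was at 0.17 in Kasumi-1 (limma adjusted p = 0.0319) and 0.062 in NB4 (0.478), under the fold minimum. With the block and median centring it was at 0.085 in Kasumi-1 (limma adjusted p = 0.198). BAG3 had 12.0, 10.5 and 8.47 FPKM in NB4 controls and 13.2, 11.9 and 13.8 with OGP46, a log2 difference of 0.34 ± 0.13 (0.031 to 0.64, limma adjusted p = 0.144; with the block, 0.0529). The lowest OGP46 sample of BAG3 lay just under the highest control. In Kasumi-1 BAG3 had 4.32, 6.30 and 3.29 FPKM and then 5.26, 6.13 and 4.15 (0.19 ± 0.21), higher in 2 of 3 pairs.

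HSP90AA1 had 505, 541 and 449 FPKM in NB4 controls and 485, 565 and 532 with OGP46 (0.082 ± 0.095, −0.14 to 0.30). In Kasumi-1 it had 358, 394 and 330 FPKM and then 424, 427 and 383 (0.19 ± 0.084, 0.0058 to 0.38, limma adjusted p = 0.305; with the block, 0.104). All 3 Kasumi-1 pairs were higher with OGP46, and the groups overlapped by the lowest OGP46 sample. Scaled to the same sum of FPKM and with the block, HSP90AA1 was at 0.21 in Kasumi-1 (limma adjusted p = 0.00658) and −0.044 in NB4 (0.584). With median centring and the block it was at 0.13 in Kasumi-1 (limma adjusted p = 0.0523). All were under the fold minimum. HSPB1 had 157, 129 and 131 FPKM in NB4 controls and 127, 110 and 139 with OGP46 (−0.15 ± 0.11, limma adjusted p = 0.394), and 155, 192 and 158 against 147, 161 and 129 FPKM in Kasumi-1 (−0.20 ± 0.10, limma adjusted p = 0.366; with the block, 0.0956). HSPD1 had 495, 527 and 474 FPKM in NB4 controls and 423, 498 and 481 with OGP46 (−0.096 ± 0.086), and 311, 333 and 295 against 309, 304 and 285 FPKM in Kasumi-1 (−0.062 ± 0.071). Both were lower in 3 of 3 Kasumi-1 pairs, and in NB4 both were higher in 1 of 3. With median centring and the block the values in NB4 were −0.34 for HSPB1 and −0.29 for HSPD1 (limma adjusted p = 0.0131 and 0.0129), and in Kasumi-1 −0.27 and −0.13 (0.0157 and 0.0534), all under the fold minimum.

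**Figure D2:**
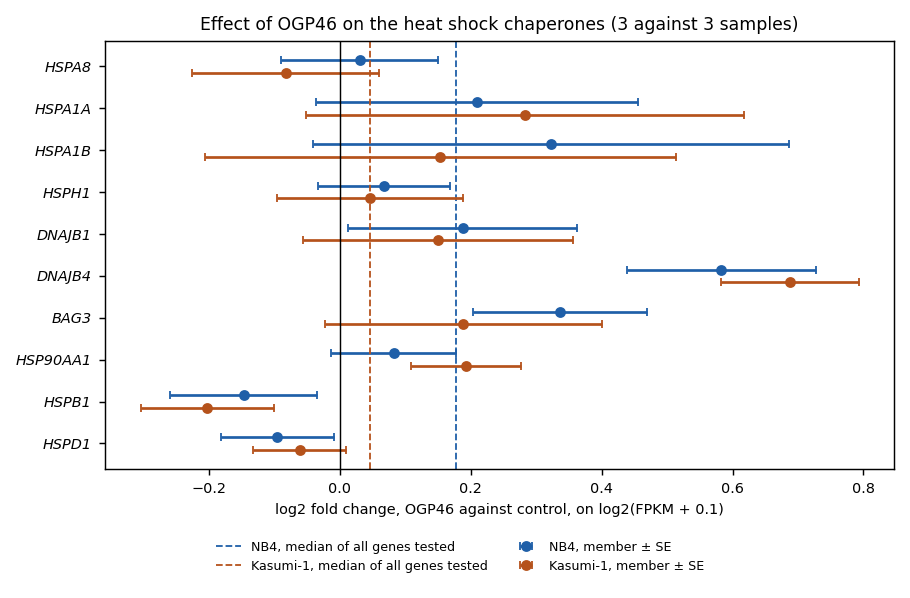
The log2 fold change of OGP46 against control on the log2(FPKM + 0.1) scale (horizontal axis) is shown for the 10 genes with its SE, in NB4 (blue) and Kasumi-1 (orange), 3 against 3 samples each. Dashed lines mark the median of all genes tested, 0.18 in NB4 and 0.046 in Kasumi-1. DNAJB4 lies farthest to the right in both lines, and HSPB1 and HSPD1 lie below 0.

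A difference of the OGP46 effect between the lines was not detected for any member. In the interaction of line and treatment in limma, none of the 10 members and none of the 12309 genes tested passed an adjusted p of 0.05 (0% of genes), while 1348 genes and none of the members passed an unadjusted p of 0.05. With the block 1.93% of the genes were called, and again none of the members. For DNAJB4 the effect in NB4 minus that in Kasumi-1 was −0.10, with an interval from −0.51 to 0.30 (limma adjusted p = 0.838). The widest interval was that of HSPA1B, from −1.16 to 1.496, so that a difference of 2-fold between the lines was not excluded there. The interval of HSPA1A, from −1.16 to 1.01, did not exclude it either. With the block the intervals were narrower, −0.23 to 0.57 for HSPA1B and −0.46 to 0.31 for HSPA1A.

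In Kasumi-1 most of the spread of the HSP70 genes, HSPH1, DNAJB1 and BAG3 followed the number of the sample and not the treatment, and so did that of the HSP70 genes and DNAJB1 in NB4. When the sum of squares of log2(FPKM + 0.1) over the 6 samples of a line was divided, the number took 97.2% for HSPA1B in Kasumi-1, 96.8% for HSPH1, 94.0% for HSPA8, 93.9% for DNAJB1 and 92.3% for HSPA1A, while OGP46 took 1.89%, 1.22%, 4.25%, 5.47% and 7.05%. BAG3 followed with 85.4% for the number. HSP90AA1 was divided otherwise in Kasumi-1, with 42.3% on the number and 53.4% on OGP46. In NB4 the number took 81.9% for HSPA1B, 80.6% for DNAJB1, 79.6% for HSPA8 and 70.7% for HSPA1A, but 40.5% for HSPH1 and 15.9% for BAG3. The number took over 80% for 6 of the 10 members in Kasumi-1, where 11.3% of all genes did, and for 2 of 10 in NB4, where 9.28% did. DNAJB4 was at the other end, with 77.7% of its spread on OGP46 in NB4 and 90.1% in Kasumi-1. Over all genes the medians on OGP46 were 39.2% in NB4 and 22.8% in Kasumi-1, and those on the number were 30.1% and 40.2%. The number has more levels than the treatment, so spread without any pattern would give it the larger share. In NB4 the samples with the number 2 were highest in both arms for 6 members, HSPA1A, HSPA1B, DNAJB1, HSPA8, HSP90AA1 and HSPD1. In Kasumi-1 the samples with the number 3 were lowest in both arms for 9 members, all but HSPB1. The labels do not say what a number marks, and whether it stands for a culture, a day or a preparation was not tested.

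**Figure D3:**
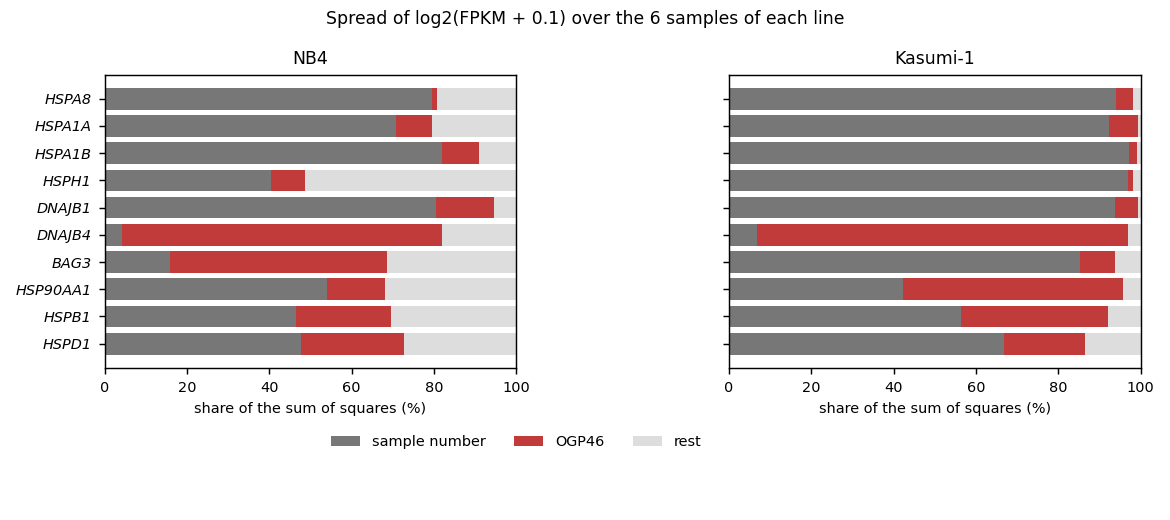
For each gene the bar divides the spread of log2(FPKM + 0.1) over the 6 samples of a line into the share of the sample number (dark grey), of OGP46 (red) and the rest (light grey), in percent (horizontal axis). In Kasumi-1 (right) the bars of HSPA8, HSPA1A, HSPA1B, HSPH1 and DNAJB1 are 92.3% to 97.2% dark grey, and the bar of DNAJB4 is 90.1% red.

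The members that varied with the number varied together. Over the 12 samples, with the mean of each line subtracted from log2(FPKM + 0.1), Pearson's r was 0.98 between HSPA1A and DNAJB1, 0.98 between HSPA1B and DNAJB1, 0.92 between HSPA1A and HSPH1 and 0.93 between HSPA1B and HSPA8. These 12 points share libraries within a sample, and r is given as a description. BAG3 stood at 0.84 with HSPH1 and 0.60 with HSPA1B. DNAJB4 had 0.12 with HSPA8, −0.25 with HSPD1 and 0.74 with HSP90AA1, and HSPB1 lay between −0.29 and 0.40 with every other member. Among 9933 genes whose mean reached 1 FPKM, those outside the members whose pattern was most like HSPA1B were ZNF436 (r = 0.96), TCTN3 (0.94), DSG2 (0.94), SLPI (0.93) and CLU (0.93), the last a secreted chaperone. For DNAJB1 they were DSG2 (0.95), ZNF436 (0.95), RAVER2 (0.94), SLPI (0.92) and RSRP1 (0.91). For HSPH1 they were POP5 (0.95), PCGF5 (0.93), ZNF253 (0.93), MLEC (0.93) and PPID (0.92), where PPID is the HSP90-binding cyclophilin 40. DSG2, CLU and RAVER2 reached the mean of 1 FPKM only through NB4. In Kasumi-1 they lay at 0.102 to 0.734, 0.120 to 0.376 and 0.176 to 0.508 FPKM. At such levels the 0.1 FPKM added before the log weighs on the pattern. SLPI, a secreted protease inhibitor, had 12.6, 24.6 and 9.66 FPKM in NB4 controls and 10.7, 30.7 and 10.03 with OGP46, high in both samples with the number 2 like HSPA1B.

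HSPA1A and HSPA1B lie 9788 bases apart in the same orientation, at chr6:31815464-31817946 and chr6:31827735-31830255 (GENCODE release 29, GRCh38). Their transcripts were 96.1% identical, and 69.9% of the 100-base windows of HSPA1A also occurred in HSPA1B, so reads cannot be fully told apart and each value is uncertain by itself. In NB4 HSPA1B was the higher of the pair in every sample, 1.24 to 1.94 times HSPA1A. In Kasumi-1 it was the lower in every sample, 0.618 to 0.731 times. The ratio did not overlap between the lines and did overlap between the arms of NB4, and 2 of 3 Kasumi-1 OGP46 samples lay under the lowest control ratio of 0.653. Summed into 1 value, the pair had 22.8, 40.9 and 18.2 FPKM in NB4 controls and 22.97, 44.4 and 30.1 with OGP46, and the log2 fold change of the sum was 0.28 in NB4 and 0.23 in Kasumi-1 (limma adjusted p = 0.56 and 0.777).

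**Figure D4:**
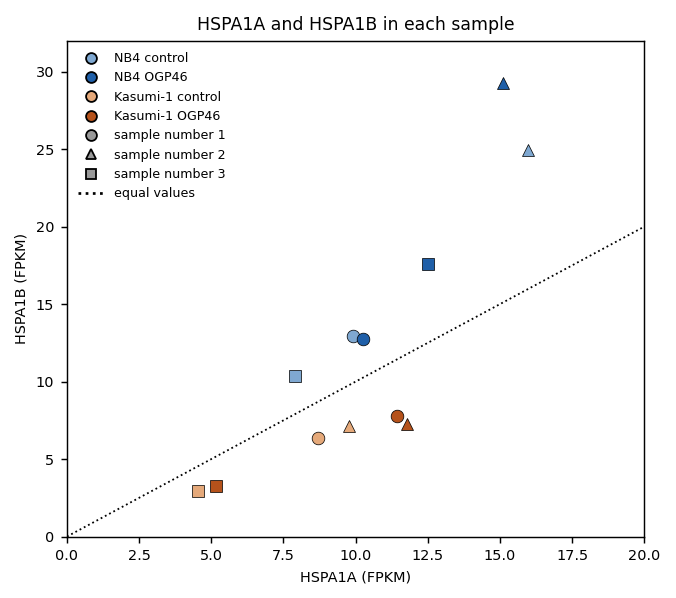
The FPKM of HSPA1B (vertical axis) is plotted against that of HSPA1A (horizontal axis) in the 12 samples, with colour for the group and the symbol for the sample number. All 6 NB4 samples lie above the dotted line of equal values, at ratios of 1.24 to 1.94, and all 6 Kasumi-1 samples lie below it, at 0.618 to 0.731.

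The control samples of the lines, which received DMSO, differed more than the arms did. The study names different serum levels for its lines without assigning them, and a part of serum in this difference was not tested. In Kasumi-1 controls HSPA1B was lower than in NB4 controls by a log2 difference of −1.52 ± 0.37 (limma adjusted p = 0.00508), HSPH1 by −1.27 ± 0.14 (3.7e-05), BAG3 by −1.17 ± 0.22 (0.00105) and HSPD1 by −0.67 ± 0.079 (5.68e-05). These 4 of 10 members were called lower and none was called higher, where 22.7% of all genes were called lower and 29.7% higher. HSP90AA1 was lower by −0.47 ± 0.098 (limma adjusted p = 0.0021), which is under the fold minimum. HSPB1 was at 0.28 ± 0.11 (0.0461), also under it. HSPA1A (−0.56 ± 0.31, adjusted p = 0.137), HSPA8 (−0.31 ± 0.14, 0.0764), DNAJB4 (0.27 ± 0.15, 0.14) and DNAJB1 (−0.021 ± 0.21, 0.929) did not pass in limma. The Kasumi-1 controls lay below the NB4 controls without overlap for 5 members and above them for none, against 34.6% and 43.1% of all genes. Scaling to the same sum of FPKM moved the split of all calls from 3659 higher and 2790 lower to 2994 higher and 3595 lower, and it added HSP90AA1 (−0.67) and HSPA1A (−0.76) to the members called lower. The sum of HSPA1A and HSPA1B was also called lower (−1.05, limma adjusted p = 0.0217).

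**Figure D5:**
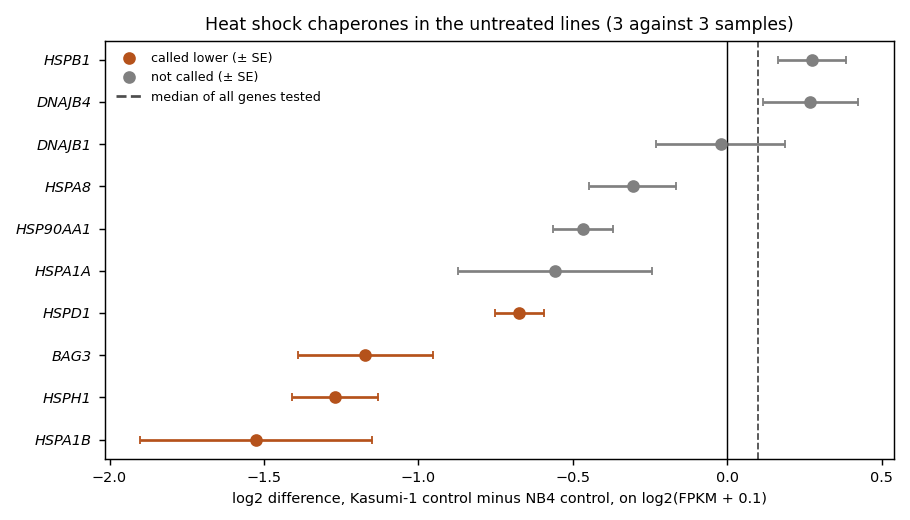
The log2 difference of Kasumi-1 control minus NB4 control on the log2(FPKM + 0.1) scale (horizontal axis) is shown with its SE for the 10 genes, ordered by size, 3 against 3 samples. HSPD1, BAG3, HSPH1 and HSPA1B (orange) were called lower in Kasumi-1, and the dashed line marks the median of all genes, 0.098.

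The other genes of the heat shock network were counted list by list. Of the 5 heat shock factors and regulators tested, none was called with OGP46 in either line. HSF1 itself had 17.5, 17.0 and 18.0 FPKM in NB4 controls and 17.1, 18.0 and 17.4 with OGP46, and 28.1, 33.4 and 30.6 against 28.2, 29.8 and 29.9 FPKM in Kasumi-1. Its mRNA was higher in Kasumi-1 than in NB4 controls by 0.80 ± 0.079 (limma adjusted p = 1.8e-05), opposite in direction to HSPA1B, HSPH1 and BAG3. None of the 9 further HSP70 and HSP110 genes tested in NB4, or of the 8 in Kasumi-1, was called with OGP46. Their median log2 fold changes were 0.029 and 0.035, against 0.18 and 0.046 over all genes. HSPA6, the strictly stress-inducible HSP70, was near the filter in every group, at 0.0749 ± 0.0297 and 0.146 ± 0.0866 FPKM in NB4 control and OGP46 samples and at 0.0757 ± 0.0262 and 0.0893 ± 0.0286 in Kasumi-1.

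Of the J-domain genes other than the members, none of 13 tested in NB4 and none of 14 in Kasumi-1 was called with OGP46 in limma without the block. With the block DNAJB2, a ubiquitin-binding J-domain protein, was called higher in NB4, at 1.98, 1.79 and 1.38 FPKM in controls and 2.94, 3.00 and 2.27 with OGP46 (0.65 ± 0.17, limma adjusted p = 0.0723; with the block, 0.00298). Of 14 HSP90 genes and co-chaperones, 8 BAG and nucleotide exchange genes and 9 chaperonins, none was called with OGP46 in either line, with or without the block. HSP90AB1, the constitutive HSP90, had 546 ± 33.3 FPKM in NB4 controls and 531 ± 59.3 with OGP46, and 573 ± 44.99 against 496 ± 30.2 in Kasumi-1 (−0.21 ± 0.082, limma adjusted p = 0.272). HSPE1, the partner of HSPD1, had 442 ± 32.5 and 408 ± 41.6 FPKM in NB4 and 255 ± 18.3 and 244 ± 14.8 in Kasumi-1. The HSPE1 gene lies within the span of HSPD1 on the other strand. The kit was stranded, but whether the counting used strand is not given, so both values are uncertain in that overlap. Of 9 small heat shock proteins other than HSPB1, 8 were below the filter in both lines, CRYAB among them.

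Among 19 further genes that HSF1 is known to bind, some of which are in the lists above, 18 were tested in NB4. TRIM16, a ubiquitin ligase, and SLC5A3, the myo-inositol transporter, were called higher with OGP46. TRIM16 had 3.52, 3.18 and 3.11 FPKM in controls and 5.60, 5.14 and 6.18 with OGP46 (0.76 ± 0.11, limma adjusted p = 0.0298), and SLC5A3 had 4.65, 4.76 and 3.67 FPKM and then 7.66, 6.90 and 6.74 (0.70 ± 0.12, 0.0364). Neither call held with median centring (0.57 and 0.50, limma adjusted p = 0.126 and 0.17), and both were kept with a sample left out only where that was OGP46 sample 2. With any other sample left out the adjusted p ran up to 0.134 for TRIM16 and 0.143 for SLC5A3 in limma. With the block both were called (limma adjusted p = 0.000743 and 0.00104). With the block and median centring both came under the fold minimum (0.57 and 0.50, limma adjusted p = 0.00687 and 0.0117). In Kasumi-1 none of 17 was called, and SLC5A3 was at 0.41 ± 0.095 (limma adjusted p = 0.109). The median over the list was 0.18 in NB4 and 0.011 in Kasumi-1, close to the medians of all genes. Of 9 genes of other stress pathways, 2 were called higher with OGP46 in NB4 and 1 in Kasumi-1, and none lower, with log2 fold changes from −0.052 to 2.34 in NB4 and from −0.29 to 1.33 in Kasumi-1. HMOX1, which encodes heme oxygenase 1 and is a target of NRF2, had 6.87, 3.03 and 6.22 FPKM in NB4 controls and 42.9, 14.2 and 29.3 with OGP46 (2.34 ± 0.42, limma adjusted p = 0.0375), and GCLM, of glutathione synthesis, was also called higher in NB4 (0.70 ± 0.12, 0.0335). In the fit without the block, the adjusted p of both ran up to 0.143 with a sample left out, and again they were called only without OGP46 sample 2. Nor were they called there with median centring (limma adjusted p = 0.155 and 0.157). With the block both were called (limma adjusted p = 2.46e-07 and 0.000659). With the block and median centring HMOX1 was still called (2.15, limma adjusted p = 0.00058), and GCLM was under the fold minimum (0.50, 0.007). DDIT3, of the unfolded protein response, was called higher in NB4 with the block (0.74, limma adjusted p = 0.00126; without it, 0.21). Its arms overlapped, at 15.8, 6.73 and 6.85 FPKM in controls and 22.5, 14.4 and 10.6 with OGP46. HSPA5 and HSP90B1, chaperones of the same response, were not called in either line, with or without the block. In NB4 HSPA5 had 243, 182 and 154 FPKM in controls and 239, 154 and 166 with OGP46. SQSTM1, which encodes the autophagy receptor p62, was the gene of this list called in Kasumi-1, at 20.8, 24.4 and 21.6 FPKM in controls and 34.7, 32.7 and 33.5 with OGP46 (0.59 ± 0.071, limma adjusted p = 0.0242). It was not called without control 1, control 3, OGP46 sample 1 or OGP46 sample 2, at 0.55 to 0.61 with adjusted p-values up to 0.128 in limma, nor with median centring (0.53), which put it under the fold minimum. SQSTM1 was called with the block (limma adjusted p = 0.00445) and with scaling to the same sum of FPKM (0.61, 0.00754).

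Between the controls of the lines, genes of the J-domain and HSP90 lists were called in both directions. Of the J-domain proteins, DNAJA2 was higher in Kasumi-1 (1.59 ± 0.069), DNAJA1 (−1.63 ± 0.11), DNAJB5 (−1.06 ± 0.27) and DNAJA3 (−0.75 ± 0.088) were lower, and DNAJA4 had 1.37, 1.51 and 0.701 FPKM in Kasumi-1 controls while it was listed at 0 in 2 NB4 controls and at 0.0138 FPKM in the other. Of the HSP90 co-chaperones, the immunophilin FKBP4 (1.75 ± 0.076), ST13 (0.67 ± 0.066) and UNC45A (0.64 ± 0.13) were higher and the kinase co-chaperone CDC37 (−1.62 ± 0.078) and the immunophilin FKBP5 (−0.86 ± 0.084) were lower. HSPA14 (1.22 ± 0.086) and HSPA4L (0.75 ± 0.15) were higher. BAG1 (−1.25 ± 0.095) and the mitochondrial nucleotide exchange factor GRPEL1 (−0.99 ± 0.083) were lower, as were the chaperonin genes HSPE1 (−0.79 ± 0.086), CCT5 (−0.68 ± 0.078) and CCT7 (−0.65 ± 0.073). Of the 17 further HSF1 targets tested, 9 were called lower in Kasumi-1 and 2 higher, against 22.7% and 29.7% of all genes, a split of all calls that turned with scaling to the same sum as given above. Those farthest from 0 were CLU (−2.40 ± 0.31), TRIM16 (−2.12 ± 0.12), DNAJA1, MRPL18 (−1.07 ± 0.084), SLC5A3 (1.00 ± 0.13) and UBB (−0.86 ± 0.069). The adjusted p-values of these genes in limma ran up to 0.00587, and ST13, UNC45A and HSPA4L came under the fold minimum when samples were scaled to the same sum (0.46, 0.44 and 0.55), UNC45A also without NB4 control 2 (0.51).

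The labels of the lines were checked against marker genes. MPO, PRTN3 and AZU1, of the granules of myeloid precursors, were found in every sample, and the summed level of 6 myeloid markers was 1704 to 3926 FPKM in NB4 and 7716 to 11800.3 in Kasumi-1. ELANE, a granule gene on the same list, was low in NB4, at 0.504, 3.30 and 14.5 FPKM in controls and 0.321, 0.430 and 1.39 with OGP46. In Kasumi-1 it was at 1035 to 1717 FPKM. In Kasumi-1 the 4 genes RUNX1T1, POU4F1, TRH and CD34 summed to 127 to 154 FPKM and in NB4 to 0.442 to 2.38. The highest of these NB4 sums was that of control 3, where CD34 stood at 1.35% of its Kasumi-1 control level, against 0.0617% and 0.158% in controls 1 and 2. RUNX1T1 and TRH were at 0.895% and 0.548% in control 3, while POU4F1 was at 10.8% there and 10.7% in control 2. Control 3 was also the lowest NB4 control for 9 of the 10 members, DNAJB4 included. Whether this goes with its marker levels was not tested. Without control 3 the log2 fold change of OGP46 in NB4 was 0.44 for DNAJB4, 0.20 for BAG3 and 0.059 for HSPA1B. CD3D was at 13.5 to 34.6 FPKM in NB4 while CD3E was at most 0.0608 FPKM there. Of the markers chosen for NB4, STAB1 was at 9.09 to 15.5 FPKM in NB4 and 0.208 to 0.626 in Kasumi-1, and HGF was found in both lines and did not separate them. The summed B cell markers were at most 2.08 FPKM, nearly all from CD79A. The summed erythroid, platelet and fibroblast markers were at most 0.184 FPKM in every sample. In bulk samples, fewer cells with a transcript and less of it per cell cannot be told apart.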

How the data were processed

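mRNA-seq was performed on poly(A) RNA of NB4 and Kasumi-1 cells, 3 control and 3 OGP46 samples of each line, with a stranded kit. The authors deposited FPKM values, 1 per gene symbol and sample (fragments scaled by gene length and by the total mapped). Per the submitters' processing notes, Trimmomatic, HISAT2, Cufflinks, HTSeq and hg38 were used. Versions, annotation and use of strand are not given in the sources used here. Read counts and depth are unknown, so counting error could not be given. Precision rests on the 3 samples of a group and on the pooling of spread over genes in limma.

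Of 20030 rows, 27 symbols turned into dates were left out. log2(FPKM + 0.1) was fitted with limma 3.58.1 (R 4.3.3; empirical Bayes with trend) over genes whose mean reached 0.1 FPKM, with Benjamini-Hochberg adjustment over all genes tested. Calls needed an adjusted p under 0.05 and a log2 fold change whose size reached 0.58. The interaction needed the adjusted p alone. Fold changes on this scale understate low genes. Exact permutation of 3 against 3 samples cannot go below 0.1 and was not used. The models were tested on simulated data. Within each line the deviations of equal-numbered samples from their group means were correlated over all genes tested. The values of r were 0.35, 0.62 and 0.20 in NB4 and 0.22, 0.16 and 0.40 in Kasumi-1. There every Kasumi-1 sample was most like its own number, but not every NB4 sample was. Over genes whose mean reached 5 FPKM every sample of both lines was (r of 0.66, 0.85 and 0.44 in NB4). The labels do not state the pairing. Promoter windows came from RefSeq (GRCh38.p14), and transcripts, compared with Biopython version 1.88, from GENCODE release 29 (GRCh38). All members were named, and from each list up to 6 called genes per comparison by size, with other genes given as counts or as background to them. DNAJB2 and DDIT3 were named from the blocked fit. HSPA6, HSP90AB1, CRYAB, HSPA5 and HSP90B1 were named after their values were seen. So were the uncalled values of SLC5A3, HSPE1 and HSF1. The members and lists were chosen with earlier results of these data known. Alternatives covered the pseudocount, filter, scaling, block, joint model, the sum of HSPA1A and HSPA1B, and each sample left out.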

Additional observations from a re-analysis of the deposited data

How the results depend on the processing

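Precision was limited by 3 samples a group, and the depth is unknown. With OGP46, no member was called lower under any alternative, and in NB4 the joint model and the replicate block each called 1 higher (DNAJB4). In Kasumi-1, 1 member (DNAJB4) was called higher with the filter at 1 FPKM, with TPM scaling (each sample scaled to the same sum), with median centring and in all 3 fits with the replicate block, and 0 to 1 with each sample left out (1 without control 2). In that line DNAJB4 was not called with a pseudocount of 1 or 0.01 FPKM (limma adjusted p = 0.0531 and 0.0538). Nor was it called with no filter (0.183) or in the joint model (0.17). With a sample left out its adjusted p ran up to 0.202 in limma. The replicate block changed no other member's call. In the line comparison, where the numbers did not pair the samples (r = −0.049, 0.018 and −0.0047), the block left 4 members lower, with median centring it made 5, and TPM scaling made 6, while every sample left out gave 4. The cause of these changes was not tested.

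All genes called in NB4 (170 higher, 13 lower) became 111 and 6 with a pseudocount of 1 FPKM, 4 and 0 with no filter, 0 and 0 with TPM scaling or median centring, 409 and 89 in the joint model, 595 and 135 with the replicate block, 310 and 142 with the block and TPM scaling, and 532 and 126 with the block and without the number 3 samples. The filter at 1 FPKM gave 7 lower, and the block with median centring 177 lower. With each sample left out they were 0 to 368 and 0 to 28. In Kasumi-1 (2 and 2) they became 0 higher with a pseudocount of 1 FPKM, 0 and 0 with no filter, 13 and 11 with the filter at 1 FPKM, 13 and 5 with TPM scaling, 4 and 16 with median centring, 1 and 0 in the joint model, 32 and 41 with the block, 25 and 66 with the block and median centring, 52 and 46 with the block and TPM scaling, and 0 to 8 and 0 to 7 with each sample left out. The interaction (0 genes) became 14 with a pseudocount of 1 FPKM, 237 with the block, 153 with the block and median centring, and 0 to 1 with each sample left out.

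Changes of sign concerned log2 differences that were not called. In NB4, TPM scaling gave HSPH1 −0.059, HSPA8 −0.097 and HSP90AA1 −0.044, and median centring gave DNAJB1 −0.0054, HSPH1 −0.13, HSPA8 −0.16 and HSP90AA1 −0.11, with or without the block. Without the number 3 samples the block gave HSPA1A −0.015, HSPH1 −0.037 and HSPA8 −0.052. In Kasumi-1, median centring gave HSPH1 −0.019. In the interaction, TPM scaling gave DNAJB1 −0.11, HSPH1 −0.12, HSPB1 −0.090 and HSPA8 −0.033, median centring −0.10, −0.12, −0.083 and −0.025 with or without the block, and the summed pair 0.050. With each sample left out, the ranges that crossed 0 were, in NB4, HSPA1A −0.013 to 0.49, HSPH1 −0.033 to 0.12 and HSPA8 −0.055 to 0.13. In Kasumi-1 they were HSPA1A −0.054 to 0.67, HSPA1B −0.23 to 0.54, DNAJB1 −0.080 to 0.36, HSPH1 −0.11 to 0.18, HSPA8 −0.23 to 0.043 and BAG3 −0.028 to 0.43. In the interaction they were HSPA1A −0.46 to 0.26, HSPA1B −0.22 to 0.56, DNAJB1 −0.17 to 0.27, HSPH1 −0.11 to 0.17, HSPB1 −0.042 to 0.15, HSPA8 −0.013 to 0.26, BAG3 −0.094 to 0.36 and HSPD1 −0.082 to 0.035, and between the lines DNAJB1 −0.16 to 0.21. The fits with the replicate block and TPM scaling, and with the block and without the number 3 samples, were added after seeing the data.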
